A study of Mus musculus with 11 samples.

Results

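The genes described here are 9 of mouse microglia: P2ry12, P2ry13, P2ry6, P2rx4, P2rx7, Gpr34, Entpd1, Adora3 and Adora2b. All but Gpr34 detect extracellular nucleotides or adenosine or act on them. Gpr34 is a receptor for lysophosphatidylserine that is related to P2ry12 in sequence. The 9 genes were taken by name, from a list drawn up for nucleotide and adenosine sensing. All 9 were found among the 16894 genes of the deposited table. ATP and ADP leave injured or active cells and act on microglia through ionotropic P2X channels and G-protein-coupled P2Y receptors. Ectoenzymes at the cell surface break these nucleotides down to adenosine, which acts on a family of receptors of its own. In the brain, microglia are known for extending processes toward ATP or ADP through P2ry12, and for losing this receptor on activation and in culture.

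RNA was sequenced from 11 libraries of mouse brain microglia, all of the Cx3cr1-GFP genotype, whose microglia carry a green fluorescent reporter. They were 4 libraries of transplanted microglia, sorted by fluorescence 3 months after they were placed in a host brain, 3 of primary microglia kept in culture, and 4 of resident microglia, also sorted. The treatment protocol, feeding with PLX3397 (an inhibitor of Csf1r, the receptor microglia need to survive) at 600 mg/kg of chow over 3 depletion cycles before transplantation, is attached to every library, so whether donors of resident cells ate the drug is not stated. The series asks how close transplanted cells come to the expression of undisturbed microglia. The labels give neither the age of the mice, the origin of the transplanted cells nor the gate of the sort, and do not say whether replicates were separate animals or cultures. P-values here therefore measure only the spread between libraries, which may be technical.

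Levels are given as CPM, counts relative to a library's total after TMM scaling, which balances libraries of different make-up. Each library held 18692721 to 19761208 expected counts in transplanted cells, 26705034 to 28219696 in cultured cells and 19055655 to 19965631 in resident cells, and 3 counts correspond to 0.106 to 0.161 CPM before that scaling. The summed level of 8 defining microglia markers was 41391 to 49195 CPM in transplanted, 3541 to 6000 CPM in cultured and 46449 to 51275 CPM in resident libraries. Cultured libraries were near the floor for one of these markers, Siglech, at 0.436 to 0.907 CPM, and held Tmem119 at 8.81 to 13.4 CPM. All 8 markers were called lower in cultured than in resident cells. The summed level of 13 immediate early genes was 1052 to 1390 CPM in transplanted libraries, 5937 to 6621 CPM in cultured libraries and 874 to 1116 CPM in resident replicates 2 to 4. Resident replicate 1 stood apart, at 15322 CPM.

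P2ry12, the Gi-coupled ADP receptor of microglia (Entrez 70839, chr3:59216271-59262985, minus strand, GRCm38.p6), and P2ry13, a related ADP receptor (Entrez 74191, chr3:59207892-59210882, minus strand), are neighbours inside the body of Med12l, which is on the other strand. Their promoters are shown with those of P2rx4, an ATP-gated cation channel, and Adora2b, the low-affinity Gs-coupled adenosine receptor. Among the members, P2ry12 and P2ry13 were lower by the widest margins in cultured than in resident cells, and P2rx4 and Adora2b were higher. Each stretch is RefSeq sequence of GRCm38.p6, from 250 bases before to 50 after the annotated start, 5′ to 3′ on the gene's strand, with CG dinucleotides in capitals. P2ry12 is at chr3:59262936-59263235 (minus), P2ry13 at chr3:59210833-59211132 (minus), P2rx4 at chr5:122707294-122707593 (plus) and Adora2b at chr11:62248734-62249033 (plus).
P2ry12: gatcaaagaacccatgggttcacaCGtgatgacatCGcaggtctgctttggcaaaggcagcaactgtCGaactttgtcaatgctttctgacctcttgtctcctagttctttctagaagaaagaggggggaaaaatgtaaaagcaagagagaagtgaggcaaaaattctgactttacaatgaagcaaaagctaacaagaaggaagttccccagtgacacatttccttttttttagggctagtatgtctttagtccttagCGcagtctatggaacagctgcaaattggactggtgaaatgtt
P2ry13: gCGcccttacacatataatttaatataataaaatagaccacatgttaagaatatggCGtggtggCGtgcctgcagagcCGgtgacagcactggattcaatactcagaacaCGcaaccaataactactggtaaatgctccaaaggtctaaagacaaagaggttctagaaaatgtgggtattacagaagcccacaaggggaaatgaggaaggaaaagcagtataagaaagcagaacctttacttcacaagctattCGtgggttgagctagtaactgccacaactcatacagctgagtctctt
P2rx4: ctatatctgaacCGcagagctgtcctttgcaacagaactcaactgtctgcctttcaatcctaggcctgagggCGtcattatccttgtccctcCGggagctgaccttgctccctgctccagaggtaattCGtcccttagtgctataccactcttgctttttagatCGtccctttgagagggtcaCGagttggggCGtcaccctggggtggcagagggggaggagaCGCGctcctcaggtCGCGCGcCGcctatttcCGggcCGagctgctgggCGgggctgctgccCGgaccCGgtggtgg
Adora2b: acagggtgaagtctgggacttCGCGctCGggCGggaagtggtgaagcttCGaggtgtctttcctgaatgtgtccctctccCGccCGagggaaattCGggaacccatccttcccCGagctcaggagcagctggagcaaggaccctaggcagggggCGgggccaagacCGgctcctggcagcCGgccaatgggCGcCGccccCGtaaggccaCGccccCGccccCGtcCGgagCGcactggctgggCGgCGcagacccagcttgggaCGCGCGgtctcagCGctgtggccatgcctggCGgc
The P2ry12 stretch holds 4 CG dinucleotides and that of P2ry13 holds 6, against 18 in P2rx4 and 27 in Adora2b. Their G and C content was 42.3% in both P2ry12 and P2ry13, 60.3% in P2rx4 and 70.0% in Adora2b, beside a median of 52.7% over 32851 mouse promoters of this length. Set against their base content, the observed to expected ratio of CG was 0.30 in P2ry12, 0.45 in P2ry13, 0.66 in P2rx4 and 0.74 in Adora2b, beside a median of 0.38 over all promoters, so P2ry13 lay above that median. These 4 were picked for their difference between cultured and resident cells, and the values are a description. The upstream start of Entpd1, whose level was lower in cultured cells, had 64.0% G and C, 23 CG dinucleotides and a ratio of 0.75. Its downstream start had 48.7% G and C, 10 CG dinucleotides and a ratio of 0.56. Which start these cells use was not tested. Adora3 had 48.3% and 1 CG, and the upstream and downstream starts of P2rx7 had 53.3% and 51.7%. TGANTCA, an AP-1-type motif, was searched on both strands and found at -98 in Adora3 and at -249 before the upstream start of P2rx7. It occurs in 7.8% of all promoters of this length. GAGGAAGT, a PU.1-type motif, was found at -30 in Adora3 and at +4 of the downstream start of P2rx7, and occurs in 3.2% of promoters. GTCTAGAC, a SMAD-type motif, was in none of the 9 windows of the 7 members with a promoter entry, and in 0.2% of promoters.

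Transplanted microglia held most of these genes near the level of resident microglia, and 1 of the 8 members tested was called between them: P2rx4 was higher in transplanted cells. P2ry12 and Gpr34 averaged less in transplanted cells, with log2 fold changes of -0.45 and -0.52, without passing the test. The remaining 5 tested members had log2 fold changes of -0.16 to 0.15. Calls are at a Benjamini-Hochberg adjusted p under 0.05 in edgeR's quasi-likelihood test, over all genes tested. Of 11929 genes tested in this comparison, 7.17% were called higher and 5.86% lower, so 1 higher and 0 lower among 8 members is a share near the background. The tested members had a median log2 fold change of 0.03, and all genes one of 0.02.

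P2rx4 (Entrez 18438, chr5:122707518-122729739, plus strand) opens to low concentrations of ATP and sits both at the surface and in lysosomes. It measured 152, 143, 147 and 149 CPM in transplanted libraries, against 90.9, 90.1, 93.4 and 96.0 CPM in resident libraries. Every transplanted library lay above every resident one, with little spread within either group. The means were 148 ± 3.92 and 92.6 ± 2.66 CPM (SD, n = 4 each), a log2 fold change of 0.68 ± 0.05 (SE) or 1.60-fold, with an adjusted p of 3.45e-05 in edgeR's quasi-likelihood test. The call held in all 17 alternative settings, with log2 fold changes of 0.64 to 0.70. Camkk2 overlaps the 3′ end of P2rx4 on the other strand, and the strand used in counting is not given, so their reads there cannot be told apart. Camkk2 had 41.1 ± 8.75 CPM in transplanted and 33.9 ± 2.92 CPM in resident cells (SD, n = 4 each), log2 fold change 0.28 ± 0.14, and was not called.

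P2ry12 measured 4198, 4832, 2951 and 3838 CPM in transplanted libraries, against 4597, 5964, 5451 and 5686 CPM in resident libraries. The groups overlapped only through transplanted replicate 2, the highest of its group, and resident replicate 1, the lowest of its group and the library with the high immediate early genes. The log2 fold change was -0.45 ± 0.14 (SE; 95% interval -0.76 to -0.14), with an adjusted p of 0.0598 in edgeR's quasi-likelihood test. Without resident replicate 1 it was -0.54 (adjusted p = 0.0475), and without transplanted replicate 2 it was -0.58 (adjusted p = 0.0168), both past the threshold in the same edgeR test. DESeq2 also called it, at an adjusted p of 0.00911. These were the 3 of 17 alternative settings that called it. In the other 14 it was not called, with an adjusted p of up to 0.217 (edgeR, one fit over all libraries). The part of the immediate early genes in the P2ry12 difference was not tested.

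Gpr34, a receptor for lysophosphatidylserine that is related to P2ry12 in sequence (Entrez 23890, chrX:13622650-13640859, plus strand), had a similar pattern. It measured 1470, 1744, 1038 and 1566 CPM in transplanted libraries and 1786, 2329, 1906 and 2350 CPM in resident libraries, so the groups did not overlap. The log2 fold change was -0.52 ± 0.15 (SE; 95% interval -0.86 to -0.18), with an adjusted p of 0.0505 in edgeR's quasi-likelihood test. It was called lower in 9 of 17 alternative settings, among them DESeq2 (adjusted p = 0.00482) and edgeR without resident replicate 1, transplanted replicate 2 or transplanted replicate 3 (adjusted p = 0.0448, 0.0245 and 0.0494). Gpr34 lies inside Cask on the opposite strand, and Cask itself was lower in transplanted cells, at 44.0 ± 7.30 against 86.6 ± 2.40 CPM (SD, n = 4 each; log2 fold change -0.97 ± 0.11, adjusted p = 0.000324). The part of Cask reads in the Gpr34 values was not tested.

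P2ry13 was at 2392 to 2913 CPM in transplanted and 2162 to 2932 CPM in resident libraries, fully overlapping, with a log2 fold change of 0.03 ± 0.10 (95% interval -0.19 to 0.25). P2ry12 therefore stood at 1.28 to 1.89 times P2ry13 per unit of length in transplanted libraries and at 2.16 to 2.41 times in resident libraries, on the TPM scale. These ratios did not overlap and are a description with no test.

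P2ry6, the UDP receptor linked to phagocytosis (Entrez 233571, chr7:100937630-100975498, minus strand), was at 638, 593, 660 and 544 CPM in transplanted and 559, 549, 553 and 536 CPM in resident libraries. Transplanted replicate 4 lay among the resident libraries and the other transplanted libraries above them all, and the log2 fold change of 0.15 ± 0.07 (95% interval -0.01 to 0.31) was not called. P2rx7, the ATP-gated channel that opens at high ATP and feeds the NLRP3 inflammasome (Entrez 18439, chr5:122643927-122692336, plus strand), was at 411, 407, 350 and 407 CPM in transplanted and 366, 368, 380 and 360 CPM in resident libraries. Transplanted replicate 3 was below all resident libraries and the other transplanted libraries above them. Its log2 fold change was 0.10 ± 0.07 (95% interval -0.06 to 0.26).

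Entpd1, the ectonucleotidase CD39, which removes ATP and ADP (Entrez 12495, chr19:40612366-40741602, plus strand), was at 943 to 1214 CPM in transplanted and 1022 to 1105 CPM in resident libraries. The log2 fold change was 0.02 ± 0.08 (95% interval -0.16 to 0.20), and the wider spread of transplanted libraries enclosed the resident ones. Adora3, a Gi-coupled adenosine receptor (Entrez 11542, chr3:105904421-105908928, plus strand), was at 128 to 181 CPM in transplanted and 163 to 187 CPM in resident libraries, with a log2 fold change of -0.16 ± 0.11 (95% interval -0.39 to 0.08). Adora2b (Entrez 11541, chr11:62248984-62266452, plus strand) was close to the floor in both groups, with 21 counts over the transplanted and 20 over the resident libraries, and did not pass the filter on low counts. Transplanted replicate 3 was the lowest of its group for P2ry12, Gpr34, P2rx7, Entpd1 and Adora3, and also for the summed microglia markers, at 41391 CPM. In bulk RNA, fewer cells of a type and less RNA per cell cannot be told apart.

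Markers of other cells also differed between these groups. Those of border-associated macrophages summed to 23.7 to 51.9 CPM in transplanted and 58.0 to 119 CPM in resident libraries, with 6 of 8 called lower and none at 0 in every library of a group. Ms4a7 averaged more in transplanted cells without being called, at 14.9, 1.59, 7.36 and 24.3 CPM against 2.63 to 5.79 CPM in resident libraries. Those of T and B lymphocytes summed to 0.823 to 1.39 CPM in transplanted and 18.2 to 27.1 CPM in resident libraries, nearly all of it Cd79b, the 1 marker of 5 that could be tested, which was lower. Cd3e, a T cell marker, was at 0 in every resident library. Endothelial markers summed to 13.4 to 18.3 CPM in transplanted and 38.0 to 56.2 CPM in resident libraries, mostly Pecam1, with 2 of 3 tested markers higher and 1 lower. Of the defining microglia markers, 2 of 8 were called lower in transplanted cells, in the direction of P2ry12 and Gpr34. Oligodendrocyte precursor markers summed to 1.44 to 4.60 CPM in transplanted and 0.0453 to 0.285 CPM in resident libraries, mostly Cspg4, and the 1 tested was higher. Pdgfra, also on that list, was close to the floor, at 0.048 to 0.228 CPM in transplanted and 0 to 0.0914 CPM in resident libraries. The part of all these markers in the member values was not tested.

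**Figure D1:**
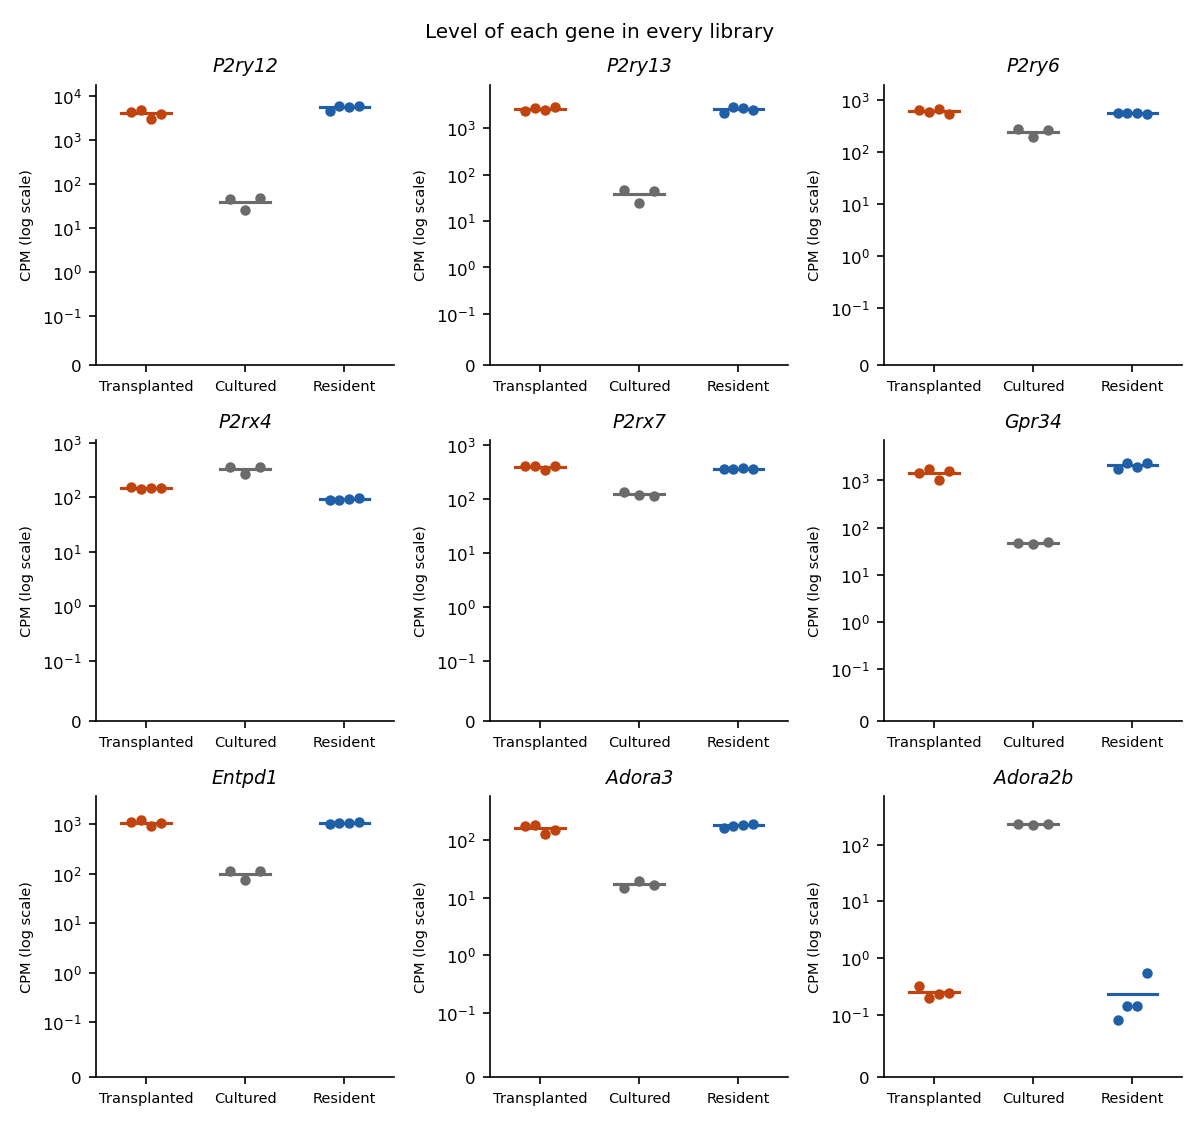
CPM of each of the 9 genes (log axis, linear below 0.1) in every library, with points for libraries and bars for group means, for 4 transplanted, 3 cultured and 4 resident libraries. P2rx4 sits at 143 to 152 CPM in transplanted, 263 to 367 in cultured and 90.1 to 96.0 in resident libraries, and Adora2b is near the floor outside culture.

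Against cultured microglia, 7 of the 9 members were higher in transplanted cells and 2 were lower, all past the threshold. Of 12284 genes tested, 36.9% were called higher and 35.5% lower in transplanted cells, so most genes were called one way or the other. The members had a median log2 fold change of 3.21, against 0.05 over all genes tested, whose changes run both ways. Scaling matters in this comparison. On TPM, which gives each library the same sum, the median log2 difference of all genes moved to 0.98, and 7755 genes were called higher and 1843 lower (80.8% higher), against 4530 higher and 4361 lower (51.0% higher) with TMM. The values that follow use TMM.

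The P2Y receptors of ADP differed most among the 7 higher members. P2ry12 was at 2951 to 4832 CPM in transplanted libraries, against 46.2, 25.3 and 46.9 CPM in cultured libraries. The lowest transplanted library was far above the highest cultured one. Transplanted over cultured cells gave a log2 fold change of 6.63 ± 0.31 (SE), or 99.3-fold, with an adjusted p of 8.22e-08 in edgeR's quasi-likelihood test. P2ry13 was at 46.4, 25.1 and 44.1 CPM in cultured libraries, nearly the values of P2ry12, and was 67.3-fold higher in transplanted cells (log2 fold change 6.07 ± 0.26). Cultured replicate 2 was lowest for both. Med12l, in which both genes lie, was at 58.4 ± 6.01 CPM in transplanted (SD, n = 4) and 1.13 ± 0.377 CPM in cultured cells (SD, n = 3), log2 fold change 5.67 ± 0.24, and reads of the opposite strands cannot be told apart.

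Gpr34 stood at 46.9, 44.8 and 49.3 CPM in cultured libraries and was 30.7-fold higher in transplanted cells (log2 fold change 4.94 ± 0.21). Entpd1 was at 115, 74.5 and 113 CPM in cultured libraries and 10.6-fold higher in transplanted cells (3.40 ± 0.19). Adora3 was at 14.4, 19.7 and 16.7 CPM in cultured libraries and 9.23-fold higher in transplanted cells (3.21 ± 0.18). None of these genes overlapped between the groups. P2rx7 and P2ry6 differed least among the higher members, at 3.13-fold and 2.49-fold (1.65 ± 0.12 and 1.31 ± 0.15). Both kept over 100 CPM in cultured libraries, P2rx7 at 118 to 135 and P2ry6 at 194 to 275 CPM.

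Adora2b went the other way. It was at 0.319, 0.192, 0.233 and 0.242 CPM in transplanted libraries, against 236, 225 and 235 CPM in cultured libraries. The gene was thus close to the floor in every transplanted library and steady in culture. In the fit the log2 fold change was -9.85 ± 0.17, a 925-fold lower level in transplanted cells, with an adjusted p of 9.1e-10 in edgeR's quasi-likelihood test. P2rx4 was also lower in transplanted than in cultured cells, where it measured 367, 263 and 366 CPM, with a log2 fold change of -1.18 ± 0.14 (2.27-fold, adjusted p = 2.93e-05). This call depended on scaling. On TPM, P2rx4 averaged 129 ± 5.65 in transplanted (SD, n = 4) and 138 ± 30.2 in cultured cells (SD, n = 3), a log2 difference of -0.07 (adjusted p = 0.682 with limma). With TPM centred on the median gene the difference was -1.14 (adjusted p = 3.74e-05 with limma).

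Cultured and resident microglia gave the same division of the members, with 2 higher and 7 lower in cultured cells. Of 12406 genes tested, 37.9% were called higher and 37.2% lower, and the members' median log2 fold change was -3.35, against -0.02 over all genes. On TPM the all-gene median moved to -0.95, with 1993 called higher and 7830 lower (20.3% higher), against 4704 higher and 4612 lower (50.5% higher) with TMM. This comparison shares its cultured libraries with the preceding one and its resident libraries with the first, so the 3 are not independent of each other. P2ry12 was lower in cultured cells by the widest margin (log2 fold change -7.06 ± 0.28), followed by P2ry13 (-6.02 ± 0.27), Gpr34 (-5.44 ± 0.16), Entpd1 (-3.36 ± 0.18), Adora3 (-3.35 ± 0.14), P2rx7 (-1.53 ± 0.10) and P2ry6 (-1.14 ± 0.14). P2rx4 was higher by 1.88 ± 0.13, or 3.68-fold, and by 0.76 on uncentred TPM (log2). Adora2b was higher by 9.97 ± 0.32, with 0.0906, 0.140, 0.143 and 0.549 CPM in resident libraries. Resident replicate 4 was the highest of these, and without it the log2 fold change was 10.81.

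Cultured cells also differed in immediate early genes and in markers of other cells. Of 13 immediate early genes, 11 were lower and 2 higher in transplanted than in cultured cells. Between cultured and resident cells, 3 of the 13 were higher and 2 lower in cultured cells. Resident replicate 1 widened the spread of the resident group here. The list summed to 5937 to 6621 CPM in cultured libraries, 15322 CPM in resident replicate 1 and 874 to 1116 CPM in resident replicates 2 to 4. The low number of calls therefore does not show that cultured and resident cells were alike in these genes. The part of the immediate early genes or of the markers in the member values was not tested. Border-associated macrophage markers summed to 2998 to 3295 CPM in cultured libraries, mostly Pf4, F13a1 and Mrc1. The sums were 23.7 to 51.9 CPM in transplanted and 58.0 to 119 CPM in resident libraries. All 6 tested were lower in transplanted than in cultured cells. Of 8 tested against resident cells, 5 were higher and 2 lower in cultured cells. Cd163 was at 0.487 to 1.57 CPM in cultured and 4.13 to 8.46 CPM in resident libraries. Lyve1 was at 0.286 to 0.532 CPM in cultured and 3.09 to 4.16 CPM in resident libraries. Monocyte markers summed to 8718 to 13006 CPM in cultured libraries, nearly all of it the matrix gene Fn1. The defining monocyte marker Ly6c2 was at 0.525 to 0.975 CPM there. Transplanted and resident libraries summed to 6.05 to 10.6 and 7.20 to 14.6 CPM on the monocyte list.

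**Figure D2:**
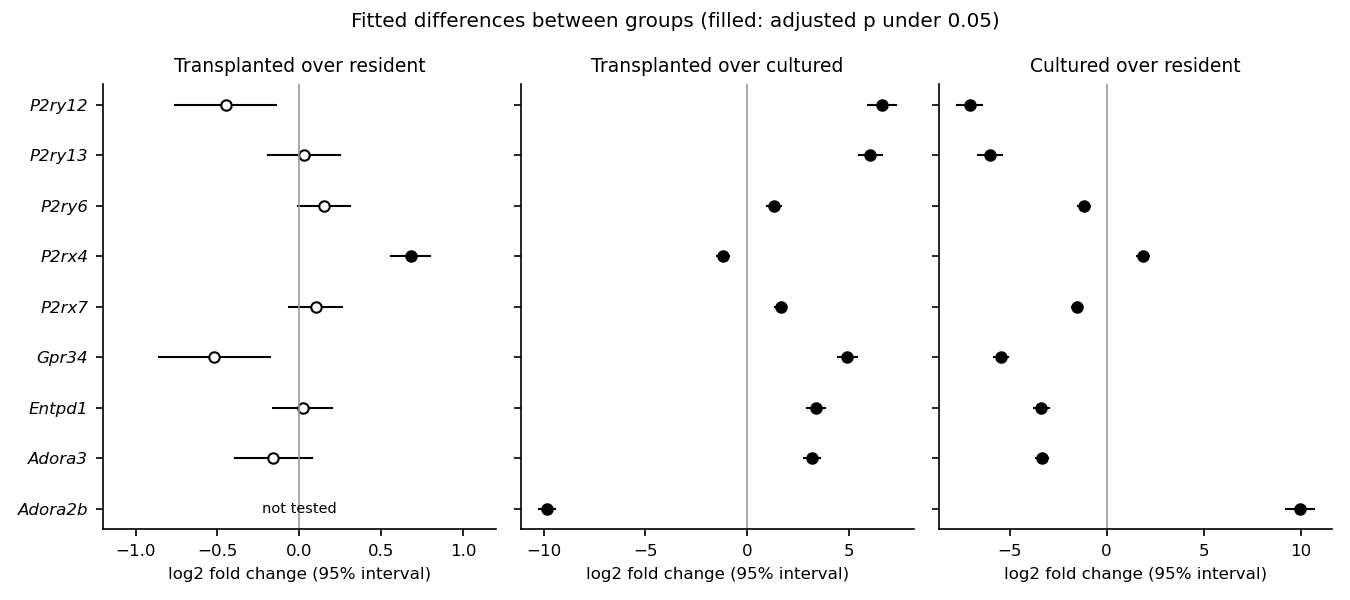
Fitted log2 fold change of each gene with its 95% interval in the 3 comparisons, filled where the adjusted p was under 0.05, with a separate horizontal scale in each panel. In transplanted over resident cells only P2rx4 is filled, at 0.68, and Adora2b was not tested. In the other panels every gene is filled.

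The make-up of the group was read on TPM, the authors' values per length, within each library, where library scaling cancels. In transplanted libraries P2ry12 led at 3916 ± 704 TPM, then P2ry13 at 2446 ± 210, Gpr34 at 1842 ± 343, P2ry6 at 778 ± 76.5, Entpd1 at 576 ± 49.1, P2rx7 at 276 ± 17.1, Adora3 at 158 ± 21.4 and P2rx4 at 129 ± 5.65 TPM (SD, n = 4). Among neighbours in that order only Adora3 and P2rx4 overlapped in range. Cultured libraries had another order. P2ry6 at 146 ± 31.2, Adora2b at 145 ± 10.8 and P2rx4 at 138 ± 30.2 TPM (SD, n = 3) overlapped at the top, and P2rx7 followed at 45.4 ± 0.931 TPM. Gpr34, Entpd1, P2ry12 and P2ry13 ran from 27.9 down to 17.1 TPM with each neighbour overlapping the next, and Adora3 was last at 7.95 ± 1.03 TPM. Resident libraries had P2ry12 at 5297 ± 545 TPM, then Gpr34 at 2588 ± 332 and P2ry13 at 2361 ± 300 TPM, which overlapped, and the same order below them as transplanted libraries (SD, n = 4). There P2rx4, at 79.6 ± 1.30 TPM, was clear of Adora3, at 174 ± 8.06 TPM.

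As shares of the summed TPM of the 9 genes, P2ry12 held 34.9% to 41.6% in transplanted, 2.35% to 3.54% in cultured and 43.1% to 44.6% in resident libraries. P2rx4 held 1.08% to 1.53% in transplanted, 22.2% to 25.1% in cultured and 0.588% to 0.751% in resident libraries. Neither share overlapped between any pair of groups. Transplanted and resident shares also did not overlap for P2ry13 (21.8% to 27.2% and 18.4% to 20.6%). The same held for Gpr34 (15.8% to 19.3% and 19.8% to 23.2%) and Entpd1 (5.38% to 6.03% and 4.30% to 5.17%). A share depends on the levels of all 9 genes. Adora2b made up 24.0% to 28.6% in cultured libraries and under 0.01% elsewhere. Among the ATP-gated channels, the P2rx4 to P2rx7 ratio on TPM was 0.442 to 0.520 in transplanted, 2.28 to 3.56 in cultured and 0.286 to 0.334 in resident libraries.

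**Figure D3:**
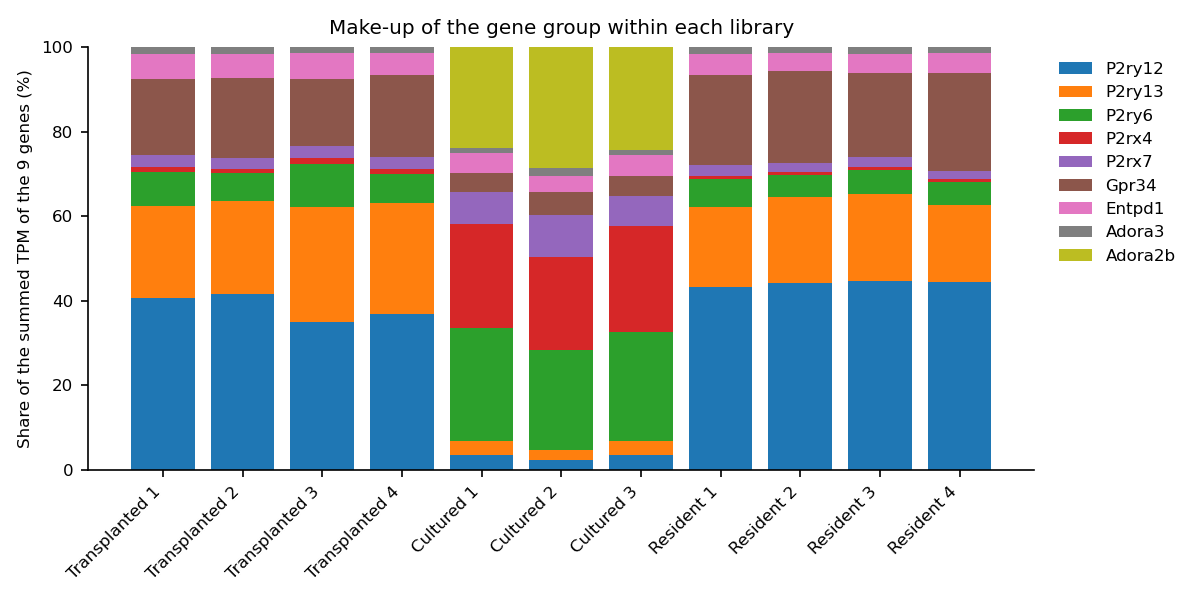
Share of each gene in the summed TPM of the 9 genes, in percent, for each of the 11 libraries. P2ry12, P2ry13 and Gpr34 fill most of every transplanted and resident bar, and P2ry6, P2rx4 and Adora2b most of every cultured bar.

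Of 93 further genes of the pathway (other receptors, ectoenzymes, transporters, release channels, coupling proteins, downstream channels, inflammasome genes and neighbours of P2ry12), 88 were in the table. Between transplanted and resident cells 63 of them were tested, of which transplanted cells had 6 higher and 2 lower (median log2 fold change -0.01), shares near the 7.17% and 5.86% of all genes. Among receptors, P2ry14, which binds UDP-glucose and lies in the P2ry12 cluster, was at 4.96, 8.36, 1.86 and 1.69 CPM in transplanted and 0.181, 0.0467, 0 and 0 CPM in resident libraries. It was low in all transplanted libraries and rested on 5 counts in all in resident ones. The log2 fold change was 6.06 ± 0.85 (adjusted p = 0.0011, edgeR), 7.62 without resident replicate 1 and 5.47 without transplanted replicate 2. P2ry14 was at 22.7 to 27.4 CPM in cultured libraries. P2ry2, a receptor for ATP and UTP, was at 3.91, 3.31, 12.7 and 7.16 CPM in transplanted and 0.654 to 1.37 CPM in resident libraries (log2 fold change 2.80 ± 0.45, adjusted p = 0.00245, edgeR), and at 10.5 to 17.5 CPM in cultured libraries. Adora1, a Gi-coupled adenosine receptor, was at 3.50 to 7.11 CPM in transplanted and 1.58 to 2.42 CPM in resident libraries (1.39 ± 0.24), with 1 count in all cultured libraries.

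Downstream of the receptors, Kcnn4, a calcium-activated potassium channel, was at 33.9, 10.3, 24.3 and 31.3 CPM in transplanted and 3.40, 3.27, 3.66 and 3.52 CPM in resident libraries. Every transplanted library was above every resident one, and replicate 2 was the lowest of them. Kcnn4 had a log2 fold change of 2.85 ± 0.32 (7.22-fold, adjusted p = 0.000288, edgeR). Adcy7, an adenylyl cyclase, was 1.46-fold higher (0.54 ± 0.08), and the lysosomal nucleoside transporter Slc29a3 was 1.26-fold higher (0.33 ± 0.07), though its call was lost in 4 of 17 alternatives, among them leaving out resident replicate 1, 2 or 4 (adjusted p = 0.0511, 0.0545 and 0.066, edgeR). Rgs10, a regulator of G-protein signalling, was lower at 316 ± 55.2 against 455 ± 27.9 CPM (SD, n = 4 each; -0.52 ± 0.12). Pycard, the inflammasome adaptor ASC, was also lower (-0.35 ± 0.10, adjusted p = 0.0397, edgeR), but lost its call in 10 of 17 alternatives, among them leaving out any library except resident replicate 1 and transplanted replicate 3 (adjusted p = 0.0635 to 0.101).

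**Figure D4:**
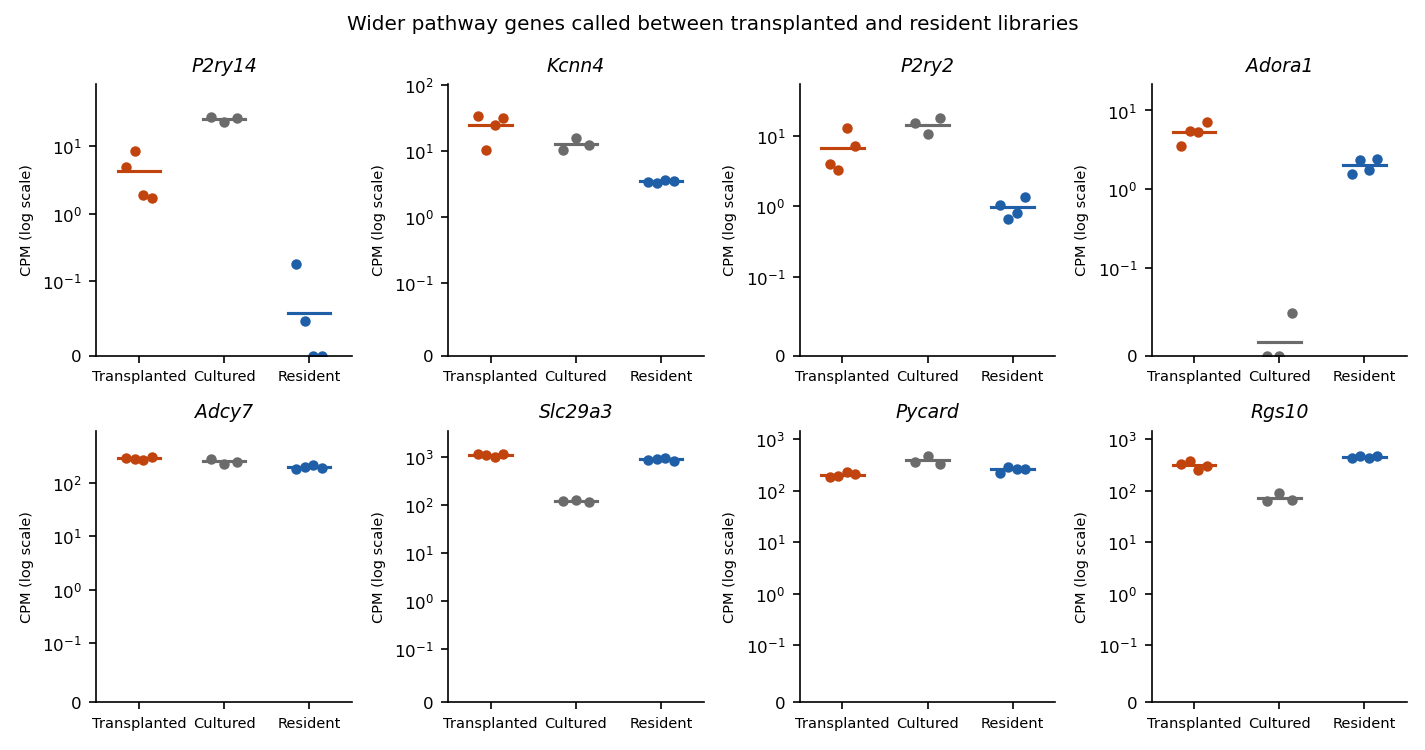
CPM (log axis, linear below 0.1) of the 8 wider pathway genes called between transplanted and resident cells, by library, with bars for group means, in transplanted, cultured and resident libraries. The transplanted means of P2ry14 and P2ry2 lie between the cultured and resident means, and Kcnn4 reaches 33.9 CPM there.

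Against cultured cells, 69 of the wider genes were tested, and 30 were higher and 26 lower in transplanted cells (median log2 fold change 0.05), or 41 and 14 on uncentred TPM. Between cultured and resident cells the split was 30 higher and 30 lower (median 0.07), or 15 and 41 on uncentred TPM. Over all genes 36.9% were higher and 35.5% lower in the first of these comparisons, and 37.9% and 37.2% in the second. Of ectonucleotidases and ectophosphatases, 5 of 6 tested genes were lower in transplanted than in cultured cells and 5 of 6 were higher in cultured than in resident cells, or 4 of 6 each on uncentred TPM. Nt5e, the enzyme CD73 that turns AMP into adenosine and so acts after Entpd1, was at 0.192 to 0.559 CPM in transplanted, 38.1 to 63.8 CPM in cultured and 0.0906 to 0.475 CPM in resident libraries. Its log2 fold change was -7.14 ± 0.34 in transplanted over cultured cells and 7.78 ± 0.35 in cultured over resident cells. Entpd1 and Nt5e thus differed in opposite directions between cultured and sorted cells. Cd38 and Bst1, which act on extracellular NAD, were at 0.240 to 2.52 and 0.319 to 0.581 CPM in transplanted, 397 to 791 and 97.0 to 140 CPM in cultured, and 1.19 to 3.55 and 0 to 0.181 CPM in resident libraries. Acpp, an acid phosphatase, had 1 count over the transplanted, 898 over the cultured and 0 over the resident libraries, at least 416-fold higher in cultured than in resident cells against 3 counts over the group. The exception was Enpp2, the lysophospholipase autotaxin, higher in transplanted than in cultured cells (5.30 ± 0.90, and 6.07 without cultured replicate 1). It spread from 5.56 to 48.3 CPM over transplanted, 0 to 1.15 CPM over cultured and 0.226 to 66.3 CPM over resident libraries.

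The 3 further P2Y receptors tested, P2ry1, P2ry2 and P2ry14, were all called lower in transplanted than in cultured cells and all called higher in cultured than in resident cells. Over all genes, 35.5% and 37.9% were called in these directions. P2ry2 overlapped between transplanted and cultured libraries, at 3.31 to 12.7 and 10.5 to 17.5 CPM. P2ry2 and P2ry14 had log2 fold changes of -1.09 ± 0.42 and -2.61 ± 0.48 in transplanted over cultured cells, and 3.91 ± 0.29 and 8.68 ± 0.46 in cultured over resident cells. For P2ry14 the last value was 10.22 without resident replicate 1. The call of P2ry2 against cultured cells (adjusted p = 0.0404, edgeR) was lost in 8 of 16 alternatives, among them uncentred TPM (-0.13) and leaving out cultured replicate 1 or 3 or transplanted replicate 1, 2 or 4 (adjusted p = 0.0716 to 0.118). P2ry1, a Gq-coupled ADP receptor, had 0 counts over the transplanted libraries, 111 over the cultured and 0 over the resident ones, so it was at least 50.5-fold lower in transplanted and at least 51.4-fold higher in cultured cells against 3 counts over the group. Adora2a, a Gs-coupled adenosine receptor like Adora2b, was at 1.79 to 3.53 CPM in cultured and at most 0.0475 CPM in resident libraries, a ratio of 69.8 (95% counting interval 23.9 to 339). Gpr171, in the P2ry12 cluster, had 1 count over the transplanted and 124 over the cultured libraries, a ratio of 169 (95% counting interval 30.4 to 6687). Adora1 had the reverse pattern, with 452 counts over the transplanted, 1 over the cultured and 176 over the resident libraries. Calhm2, of a family of ATP-permeable channels, was 42.1-fold higher in transplanted than in cultured cells (5.40 ± 0.16) and 44.3-fold lower in cultured than in resident cells (-5.47 ± 0.16). Il1b, the cytokine released after P2rx7 opens, was at 3.50 to 5.22 CPM in transplanted, 444 to 513 CPM in cultured and 1.60 to 5.07 CPM in resident libraries (log2 fold change -6.85 ± 0.17 in transplanted over cultured cells). Entpd4, an intracellular NTPDase, was at 7.42 to 23.6 CPM in transplanted libraries, 0 in cultured and 0 to 5.18 CPM in resident libraries, but reads may have been split with its near-identical copy Entpd4b, and the values are uncertain.

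Among 11533 genes outside these lists, those whose log2 CPM followed a member most closely over the 11 libraries are given as a description, since the libraries form a cultured and a sorted set that any such likeness mostly reads. Closest to P2ry12 were Ecscr, Vsir and Tgfbr1 (Pearson r of 0.999, 0.999 and 0.9989). Tgfbr1, a receptor of TGF-beta, averaged 1730 CPM in transplanted, 83.3 CPM in cultured and 1862 CPM in resident cells, and was also the closest to Entpd1 (0.9989). Among the closest to P2rx4 were Cdca7l and Pirb (0.9926 and 0.991). Pirb averaged 82.9 CPM in transplanted, 294 CPM in cultured and 40.9 CPM in resident cells. Closest to Adora2b were Ptpn7, Socs2 and Cfp (0.9969, 0.9963 and 0.9952), with Cfp, which encodes properdin, at 2.03 CPM in transplanted, 1125 CPM in cultured and 1.98 CPM in resident cells.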

How the data were processed

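RNA-seq values of 11 libraries were read from one deposited table. Per the file headers, the authors' pipeline estimated an expected count for each gene, with no scaling for library size. The deposited TPM column of each library is scaled for gene length and depth, per the file headers. HISAT, Bowtie2 and GRCm38.p6 appear in the submitters' processing notes. Which versions, counter, strand setting and filters applied is not given in the sources used here. Deposited FPKM columns (11) were left aside. Symbols and coordinates came from RefSeq for GRCm38.p6, which matched 16845 of 16894 identifiers.

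Libraries were grouped by title. Rounded expected counts of each pair of groups were fitted separately in edgeR 4.0.16 (R 4.3.3) with TMM, its filter on low counts and the quasi-likelihood test. Adjustment was Benjamini-Hochberg over all genes tested, at a threshold of 0.05. Every adjusted p comes from this test unless limma 3.58.1 (on log2 TPM with a pseudocount of 1) or DESeq2 1.42.0 is named. Errors beside log2 fold changes are SE. Intervals on counts and the floor of 3 counts cover counting error only.

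The members, lists and tests were chosen with earlier results of these data known. The genes named are the members, every wider pathway gene called between transplanted and resident cells, up to 12 called pathway genes with the largest change in each comparison with cultured cells, overlapping genes and, for P2ry12, P2rx4, Adora2b and Entpd1, genes close to them by Pearson correlation; the rest of the closest genes are not reported here. Replicate numbers did not pair libraries. Alternatives were other scaling, tests, filters, pseudocounts, TPM in place of counts, a replicate block, one fit over all libraries, and each library left out.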

Additional observations from a re-analysis of the deposited data

Results flagged for a closer look

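Of 58 groups of 4 libraries examined over 29 genes named in the text, 7 held a library past Dixon's 95% critical value. The measure is the gap of that library to the others, as a share of the group's range. Chance alone passes the critical value about once in 20 groups. Among the members, P2rx7 in transplanted replicate 3 was at 350 CPM against 407 to 411 CPM in the other transplanted libraries (ratio 0.935). Adora2b in resident replicate 4 was at 0.549 CPM against 0.0906 to 0.143 CPM in the other resident libraries (ratio 0.887), a difference of a few counts. Of the wider genes, Entpd4 in transplanted replicate 4 was at 23.6 CPM against 7.42 to 7.83 CPM (ratio 0.974), and Cd38 in transplanted replicate 3 was at 2.52 CPM against 0.240 to 0.629 CPM (ratio 0.8291). The flags for Acpp in transplanted replicate 3 (ratio 1.0), Gpr171 in transplanted replicate 2 (ratio 1.0) and Adora2a in resident replicate 4 (ratio 0.953) each rest on single counts.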

How the results depend on the processing

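In the comparisons with cultured cells the calls of all 9 members held in every alternative run, except P2rx4 on uncentred TPM between transplanted and cultured cells (-0.07 in 3 settings). Between transplanted and resident cells 1 member was called in the main test, 2 with DESeq2 size factors, with no filter on low counts, with a replicate block and on TPM with a pseudocount of 0.1 or 1, 3 with DESeq2's own test, and 1 to 3 with each library left out. The added members were Gpr34 and P2ry12, both lower; which library was left out is given beside their values, and the cause was not tested. P2ry13 and Entpd1, which were not called, changed sign: P2ry13 ranged from -0.06 to 0.08 and Entpd1 from -0.06 to 0.06 with a library left out, and Entpd1 was -0.02 on centred TPM. With DESeq2 size factors the order of transplanted and resident means also changed for these genes, and 7 of 9 members kept their order of groups. Over all genes, 912 were called between transplanted and resident cells in one fit over all libraries, against 1554 in the pair alone, and 1039 to 1753 with a library left out.

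Replicate numbers were not a pairing: correlations of same-numbered libraries were -0.037 to 0.027 between transplanted and resident cells, and 0 of 4 transplanted libraries correlated best with their own number. With the replicate block 1299 genes were called there, Gpr34 among them (-0.53, adjusted p = 0.0185 in edgeR) and Slc29a3 not. The block left 9 members called in both comparisons with cultured cells. Depth limits statements on Adora2b outside culture, where a library holds a few counts.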
